A study of Homo sapiens with 4 samples.

Results

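GATA1 is the transcription factor that directs megakaryocyte and erythroid development, and Meg-01 is a human leukaemia line of megakaryoblasts, long established in culture. The transcripts described here are those whose level was below 0.5 of the control on every array when GATA1 was knocked down in Meg-01. They were chosen by the measured values themselves: a probe was taken when its log2 ratio of knockdown over control was below -1 on all 4 arrays. This held for 57 of 40974 probes measured on each of the 4 arrays (0.139%), and the 57 probes carry 43 names. Agilent 2-colour whole human genome arrays were hybridized with RNA of a knockdown clone in 1 dye and RNA of the control in the other. The clones, GATA1 5-13 and GATA1 4-14, stably carry a GATA1 shRNA from a lentivirus and each grew from a single colony. The control, GATA1 Neg, is a pool of Meg-01 cells infected with a negative control shRNA, and the same control was on every array. Each clone had 2 arrays with the dyes in opposite orientation, and these count as 1 replicate, so that n = 2 clones. As clones were compared with a pool, what a clone acquired by growing from a single cell and what the shRNA did cannot be told apart. The extraction text of the labels names CMK, another megakaryoblastic line, while the other labels name Meg-01.

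GATA1 binds DNA at sites that hold the letters GATA and can raise or lower the level of its targets. It is needed for the maturation of megakaryocytes, red cells, mast cells and eosinophils, and early progenitors of these cells carry surface proteins such as CD34 that are lost as they mature. Among the 57 probes are genes for progenitor and endothelial receptors, for immune receptors and their adaptors, for secreted proteases and their inhibitors, for nuclear factors, for proteins of the cytoskeleton and membrane traffic, and for antigens normally made in testis.

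On an array, the red signal of 61.8% to 65.8% of the probe spots and the green signal of 61.6% to 66.4% passed as well above background, and 0 spots were saturated. GATA1 itself, read by 1 probe (hg18 chromosome X, 48535797 to 48536559), gave ratios of -0.21 and -0.34 in GATA1 5-13 and of -0.43 and -0.58 in GATA1 4-14. It was thus lower on 4 of 4 arrays, as were 13.4% of all probes, but lay far from the threshold. By this 1 probe, 82.7% of the control level was left in GATA1 5-13 and 70.6% in GATA1 4-14. The paper reports GATA1 as reduced in both clones by RT-PCR and by Western blot. Its protein estimates are lower shares of the control than these, so that the probe alone does not measure the depth of the knockdown. Of 11 megakaryocyte markers measured, 7 were well above background in GATA1 Neg, among them ITGA2B and GP1BA, and PF4, PPBP, SELP and VWF were not. All 6 erythroid markers were well above background in the control, while 5 of 6 neutrophil and monocyte markers and 4 of 6 B and T cell markers were not.

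Since the probes were selected on these arrays, their low values are no finding and were not tested. In all values that follow, the pair given for a clone is the array with the knockdown RNA in red and then the array with it in green. Over the 57 probes, the mean log2 ratio of a clone ran from -5.08 to -1.07 around a median of -1.74 in GATA1 5-13, and from -4.95 to -1.08 around -1.56 in GATA1 4-14. Over all 40974 probes the median was 0.00 in both clones. The set lay mostly close to its threshold: 20 of the probes were below -1.5 on every array, and 4 were below -2. The control RNA was well above background on all 4 arrays for all 57 probes, as it was for 59.8% of all probes, and a probe with a dim control could hardly have met the rule.

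**Figure D1:**
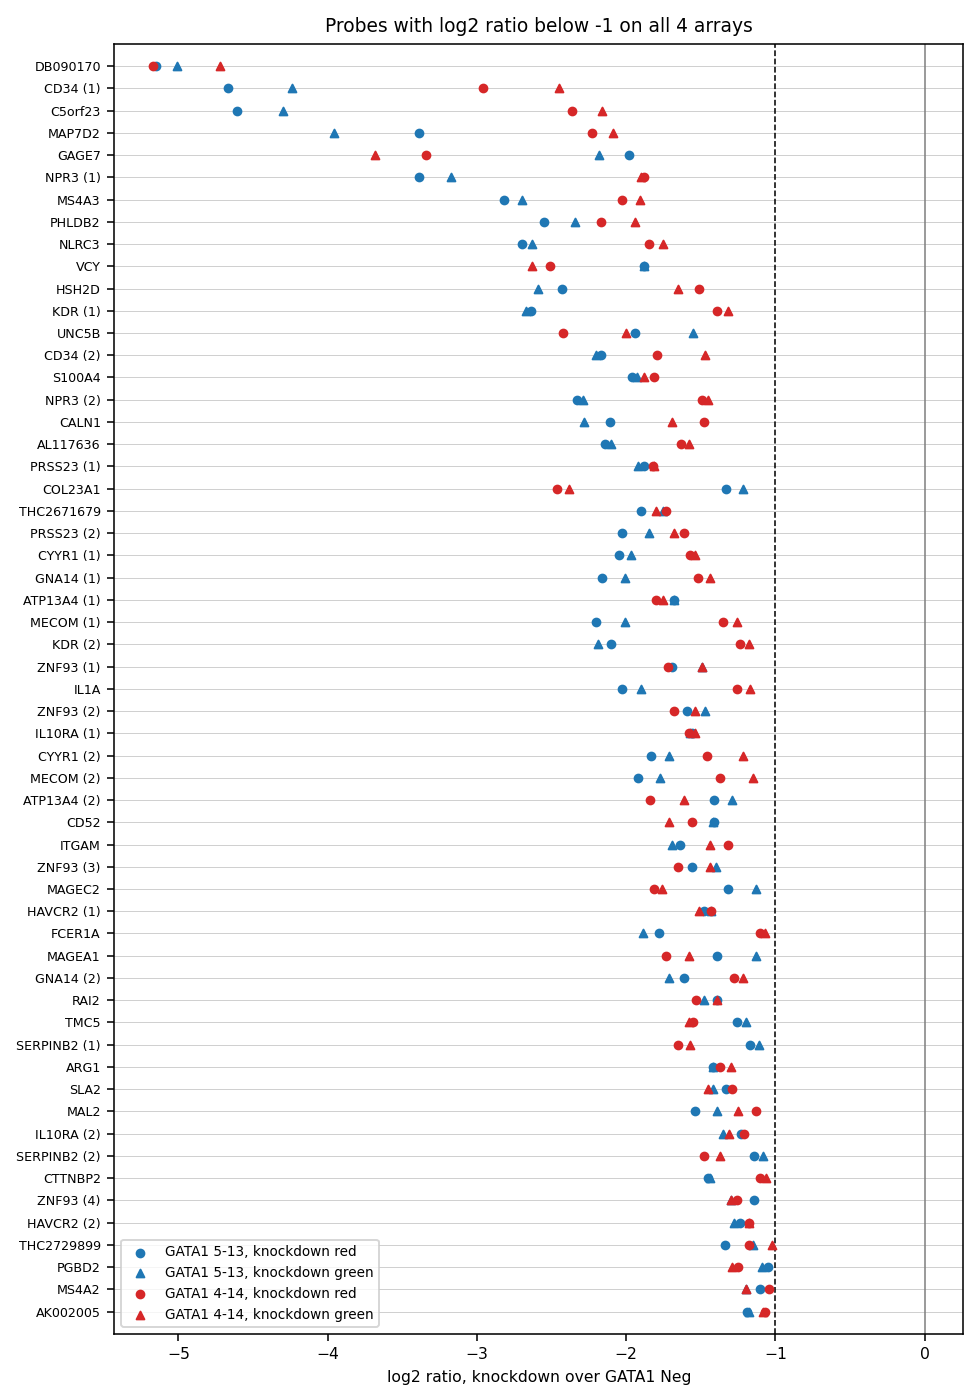
Log2 ratio of knockdown over GATA1 Neg (x axis) for each of the 57 probes (rows, ordered by their mean), with blue for GATA1 5-13, red for GATA1 4-14, circles for the array with the knockdown RNA in red and triangles for the array with it in green. The dashed line marks the threshold of -1, which all points lie below, and the top row, DB090170, is set apart at -4.72 to -5.17.

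The knockdown RNA was well above background on all 4 arrays for 40 of the 57 probes, so that their ratios have a measured level on both sides. For 3 probes it passed this limit on 0 of the 4 arrays, and these have only a lower bound of the fold in both clones. A further 6 probes had only a bound in GATA1 5-13 and 2 only in GATA1 4-14, and the other 6 were measured on some but not all arrays of 1 or both clones. These were the probes of C5orf23, THC2671679 and MAL2, and those of NPR3, EVI1 and GNA14 that start at 32822128, 170289513 and 79228805. The bounds set the control, after loess and Aquantile normalization of each channel, against the probe's signal in the clone or, where that was lower, against the faintest signal that any probe well above background had on the array. Where the probe's own signal was used, the bound is no stricter than the measured fold, as for PHLDB2 in GATA1 4-14, where both were 4.16. All bounds given below hold for this background correction and offset only, and are no strict limits. In a bulk RNA sample, fewer cells of a kind and less RNA per cell cannot be told apart.

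CD34, a surface sialomucin of haematopoietic progenitors and endothelium, had the lowest mean among the probes measured on both sides. Its probe on chromosome 1 from 206126517 to 206126576 had log2 ratios of -4.67 and -4.24 in GATA1 5-13 and of -2.96 and -2.45 in GATA1 4-14. This left 4.56% of the control level in GATA1 5-13 and 15.3% in GATA1 4-14, and the arrays of the clones did not overlap. A second CD34 probe, 206127232 to 206127291, had ratios of -2.17, -2.20, -1.79 and -1.47 on the same arrays, and there both clones were too dim for a measured level, which puts the fold at 3.83 or more in GATA1 5-13 and 3.09 or more in GATA1 4-14. At the second probe the order of the clones and the size rest on signals at the floor.

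KDR, the main receptor for VEGF on endothelium and its precursors, had 2 probes in the set. The probe at 55640154 to 55640213 of chromosome 4 had ratios of -2.64 and -2.67 in GATA1 5-13 and of -1.39 and -1.32 in GATA1 4-14. The other, at 55643555 to 55648585, had -2.10, -2.19, -1.24 and -1.18 and was too dim in GATA1 5-13 for more than a bound, at least 4.33-fold lower. NPR3, the clearance receptor that removes natriuretic peptides, and C5orf23 lay together on chromosome 5. NPR3 had ratios of -3.39, -3.17, -1.88 and -1.90 at 32822128 to 32822187, and of -2.33, -2.29, -1.49 and -1.45 at 32820718 to 32822127, where GATA1 5-13 was at least 4.63-fold lower. C5orf23, 5.3 kb further on at 32827474 to 32827533, had -4.61 and -4.30 in GATA1 5-13 and -2.36 and -2.16 in GATA1 4-14. Its clone means, -4.45 and -2.26, were the furthest apart in the set as measured, by 2.19, but its knockdown RNA passed background on only 1 of the 2 arrays of GATA1 5-13. UNC5B, a netrin receptor of neurons and vessels, ran the other way, with -1.94 and -1.55 in GATA1 5-13 and -2.42 and -2.0 in GATA1 4-14 (chromosome 10, 72729603 to 72729662).

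Receptors and other surface proteins of immune cells made up the next group. MS4A3, a tetraspan protein of granulocyte precursors, had log2 ratios of -2.82 and -2.70 in GATA1 5-13 and of -2.03 and -1.91 in GATA1 4-14 (chromosome 11, 59591083 to 59591142). MS4A2, the beta subunit of the high-affinity IgE receptor of mast cells and basophils, lay 31.2 kb from it at 59622332 to 59622391 and had -1.10, -1.2, -1.04 and -1.2. FCER1A, the alpha subunit that binds IgE, had -1.78, -1.89, -1.10 and -1.07 (chromosome 1, 157542658 to 157544219, spliced). Of the 3 chains of the receptor, the set thus held the alpha and the beta chain, while the gamma chain gene FCER1G, which other receptors share, averaged -0.40 in GATA1 5-13 but 0.02 in GATA1 4-14. This comparison of chains was added after the values were seen. All 5 mast cell and basophil markers listed were well above background in GATA1 Neg, with medians of -0.40 and -0.26 in the clones. They lay in both directions, from MS4A2 at -1.15 and TPSAB1 at -0.85 to CPA3 at 0.71 in GATA1 5-13, and from MS4A2 at -1.12 and KIT at -1.06 to CPA3 at 1.87 in GATA1 4-14. Their part in the values of FCER1A and MS4A2 was not tested.

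The stretches before the start sites of these genes are shown because the knocked-down factor reads the letters GATA. They are the 250 bases before the start in the RefSeq promoter table (GRCh38.p14), in lower case, with any match to a GATA motif of 6 letters, on either strand, in capitals. The motifs searched were AGATAA and its variant ending in G (AGATAG), and TGATAA with the like variant (TGATAG). ARG1, described further on, and CD34, which holds no such letters in this window, are shown beside them.
FCER1A, chr1:159302086-159302335, plus strand: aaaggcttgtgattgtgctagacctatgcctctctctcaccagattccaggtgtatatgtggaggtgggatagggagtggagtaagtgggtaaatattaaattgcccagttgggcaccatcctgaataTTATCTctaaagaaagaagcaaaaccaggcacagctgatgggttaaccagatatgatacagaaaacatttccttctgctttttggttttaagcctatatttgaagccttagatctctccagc
MS4A2, chr11:60088414-60088663, plus strand: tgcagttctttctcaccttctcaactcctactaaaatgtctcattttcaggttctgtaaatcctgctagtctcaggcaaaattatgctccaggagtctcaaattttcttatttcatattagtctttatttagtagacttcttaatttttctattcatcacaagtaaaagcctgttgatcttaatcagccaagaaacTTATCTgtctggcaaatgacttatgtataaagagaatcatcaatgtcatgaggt
MS4A3, chr11:60056415-60056664, plus strand: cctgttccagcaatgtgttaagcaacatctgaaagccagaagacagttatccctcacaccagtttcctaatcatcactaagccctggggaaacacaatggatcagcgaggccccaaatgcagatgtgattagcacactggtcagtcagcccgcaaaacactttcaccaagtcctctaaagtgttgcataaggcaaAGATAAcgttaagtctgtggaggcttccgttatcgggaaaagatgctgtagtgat
ARG1, chr6:131572976-131573225, plus strand: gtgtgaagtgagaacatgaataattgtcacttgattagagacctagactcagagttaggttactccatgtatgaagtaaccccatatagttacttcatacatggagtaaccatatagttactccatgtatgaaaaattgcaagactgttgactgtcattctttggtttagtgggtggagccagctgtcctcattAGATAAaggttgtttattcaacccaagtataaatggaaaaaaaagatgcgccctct
CD34, chr1:207911126-207911375, minus strand: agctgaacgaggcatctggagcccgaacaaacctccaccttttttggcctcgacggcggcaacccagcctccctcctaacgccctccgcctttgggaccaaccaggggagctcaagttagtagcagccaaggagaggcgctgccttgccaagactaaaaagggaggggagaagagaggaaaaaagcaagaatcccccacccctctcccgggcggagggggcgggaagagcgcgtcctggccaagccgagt

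In FCER1A the letters begin 122 bases before the start, and in MS4A2, MS4A3 and ARG1 they begin 54, 55 and 56 bases before it. Of the 43 names, 28 had a promoter in the table. The letters were in 10 of these 28 (35.7%), in the window of 250 bases before to 50 after the start, against 6967 of all 27305 promoters (25.5%). The other 6 were CD52, CYYR1, IL10RA, ITGAM, MECOM and PHLDB2. In these the letters begin 190, 197, 164, 35, 31 and 189 bases before the start, so that the 10 promoters share no common position. Of the 28, 0 held more than 1 match, against 6.26% of all promoters. A match of letters is not a bound site, and binding was not measured here.

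Of the other immune surface proteins, the arrays of the clones overlapped for IL10RA but not for ITGAM or CD52. IL10RA, the ligand-binding chain of the interleukin-10 receptor, had 2 probes on chromosome 11. That at 117377280 to 117377339 had ratios of -1.56, -1.57, -1.58 and -1.54, and that at 117376908 to 117376967 had -1.23, -1.35, -1.21 and -1.31. The first of these, together with SLA2, showed the smallest difference between the clones. HAVCR2, the inhibitory receptor TIM-3, had -1.48, -1.43, -1.43 and -1.51 at 156445482 to 156445541 of chromosome 5 and -1.24, -1.28, -1.18 and -1.18 at 156445896 to 156445955. ITGAM, the alpha chain of the leukocyte integrin Mac-1, had -1.64, -1.69, -1.32 and -1.44 (chromosome 16, 31251317 to 31251376). CD52, a small lipid-anchored glycoprotein of lymphocytes and monocytes, had -1.41, -1.42, -1.56 and -1.71 (chromosome 1, 26519472 to 26519531), with GATA1 4-14 the lower clone.

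Inside the cell, adaptors and signal transducers of blood cells were in the set. NLRC3, a NOD-like receptor that dampens innate signalling, had -2.70 and -2.63 in GATA1 5-13 and -1.85 and -1.75 in GATA1 4-14 (chromosome 16, 3529133 to 3529192). HSH2D, a haematopoietic SH2 adaptor, had -2.43, -2.59, -1.51 and -1.65 (chromosome 19, 16130004 to 16130063). In both of these genes every array of GATA1 5-13 lay below every array of GATA1 4-14. SLA2, an adaptor that restrains antigen receptor signalling, had -1.33, -1.42, -1.29 and -1.45 with the clones overlapping (chromosome 20, 34675152 to 34675211). GNA14, an alpha subunit of the Gq class of G proteins, had -2.16, -2.01, -1.52 and -1.44 at 79228013 to 79228072 of chromosome 9 and -1.61, -1.71, -1.28 and -1.22 at 79228805 to 79228864. Both GNA14 probes had GATA1 5-13 as the lower clone.

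Secreted proteins, proteases and protease inhibitors came next, and ARG1 and S100A4 are given with them. IL1A, the cytokine interleukin-1 alpha, had log2 ratios of -2.03 and -1.90 in GATA1 5-13, with a bound of at least 3.60-fold lower there, and of -1.26 and -1.17 in GATA1 4-14 (chromosome 2, 113248833 to 113248892). PRSS23, a secreted serine protease, had -1.88, -1.92, -1.82 and -1.81 at 86197412 to 86197471 of chromosome 11 and -2.03, -1.85, -1.61 and -1.68 at 86199710 to 86199769. SERPINB2, the plasminogen activator inhibitor of monocytes, had -1.17, -1.11, -1.65 and -1.57 at 59721938 to 59721997 of chromosome 18 and -1.14, -1.08, -1.48 and -1.37 at 59721182 to 59721241, with GATA1 4-14 lower at both. ARG1, the arginase of liver and myeloid cells, had -1.42, -1.42, -1.37 and -1.30 (chromosome 6, 131947066 to 131947125). S100A4, a calcium-binding protein linked to cell movement, had -1.96, -1.93, -1.81 and -1.88 (chromosome 1, 151782822 to 151782881), a level of 26.0% of the control in GATA1 5-13 and 27.8% in GATA1 4-14.

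The nuclear proteins included EVI1, now part of MECOM, a zinc finger regulator of haematopoietic stem cells. Its probes at 170289513 to 170289572 and 170289533 to 170289592 of chromosome 3 overlap and so measure nearly the same stretch. They had ratios of -2.20, -2.01, -1.35 and -1.26 and of -1.92, -1.77, -1.37 and -1.15, the latter at least 3.17-fold lower in GATA1 5-13. ZNF93, a KRAB zinc finger protein that silences retroelements, had 4 probes within 20101282 to 20101615 of chromosome 19. The 3 that overlap had ratios between -1.40 and -1.72 and the fourth between -1.14 and -1.30. The clones overlapped at each of the 4 ZNF93 probes, and whether related zinc finger transcripts bind these probes was not tested, so that the gene is uncertain. RAI2, a transcriptional coregulator induced by retinoic acid, had -1.39, -1.48, -1.53 and -1.39 (chromosome X, 17728299 to 17728358). PGBD2, derived from a piggyBac transposase, had -1.05, -1.09, -1.25 and -1.29 (chromosome 1, 247179174 to 247179233).

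Proteins of the cytoskeleton and of membranes made up a group with few ties to blood cells. MAP7D2, a microtubule-associated protein, had -3.39 and -3.96 in GATA1 5-13 and -2.23 and -2.09 in GATA1 4-14 (named RP11-393H10.2 on the array, chromosome X, 19935417 to 19935476). The 2 arrays of GATA1 5-13 were 0.56 apart there, the widest gap within a clone in the set. PHLDB2, which anchors microtubules at the cell cortex, had -2.55, -2.34, -2.17 and -1.94, and as both clones were too dim for a level its fold was 4.60 or more in GATA1 5-13 and 4.16 or more in GATA1 4-14 (chromosome 3, 113177662 to 113177721). CTTNBP2, a cortactin-binding protein of neurons, had -1.45, -1.44, -1.10 and -1.06 (chromosome 7, 117138319 to 117138378). MAL2, a protein of transcytosis in epithelia, had -1.54, -1.39, -1.13 and -1.25 (chromosome 8, 120326738 to 120326797). COL23A1, a collagen with a transmembrane segment, had -1.33 and -1.22 in GATA1 5-13 and -2.46 and -2.38 in GATA1 4-14 (chromosome 5, 177597411 to 177597470), and was among the members with the lower value in GATA1 4-14.

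CALN1, a calcium-binding protein of the brain, had -2.11, -2.28, -1.48 and -1.69 at 70913351 to 70913410 of chromosome 7. The transcript AL117636, 30.4 kb away at 70882884 to 70882943, had -2.14, -2.10, -1.63 and -1.58. In GATA1 5-13 both had only a bound, of at least 4.06-fold for CALN1 and at least 4.17-fold for AL117636. ATP13A4, a P5-type ATPase of intracellular membranes, had -1.68, -1.68, -1.80 and -1.75 at 194612820 to 194615086 of chromosome 3 and -1.41, -1.29, -1.84 and -1.61 at 194641982 to 194642041, where GATA1 4-14 was at least 3.31-fold lower. CYYR1, a small membrane protein on chromosome 21, had -2.05, -1.97, -1.57 and -1.54 at 26760551 to 26760610 and -1.83, -1.71, -1.46 and -1.22 at 26762052 to 26762111. TMC5, a transmembrane channel-like protein, had -1.26, -1.2, -1.55 and -1.58 (chromosome 16, 19416949 to 19417008). In CYYR1 the lower clone was GATA1 5-13, and in ATP13A4 and TMC5 it was GATA1 4-14.

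At the 4 probes of testis antigens in the set, both arrays of GATA1 4-14 lay below both of GATA1 5-13. This order held for 13 of the 57 probes and for 24.2% of all probes. Testis genes outside the set went both ways, as MAGEA9 with means of -0.96 in GATA1 5-13 and 1.56 in GATA1 4-14, and MAGEC1 with 0.15 and -0.40. GAGE7 had -1.98 and -2.18 in GATA1 5-13 and -3.34 and -3.68 in GATA1 4-14, which left 23.6% and 8.80% of the control (chromosome X, 49105285 to 49105344). MAGEC2 had -1.32, -1.13, -1.81 and -1.76 (141117989 to 141118048 of X), and its bound in GATA1 4-14, where it was too dim, was at least 2.84-fold lower. MAGEA1 had -1.39, -1.13, -1.73 and -1.58 (152134904 to 152134963 of X), and VCY had -1.88, -1.88, -2.51 and -2.63 (chromosome Y, 14678112 to 14678171). These genes belong to families with related copies, and which copies bind each probe was not tested, so that the gene is uncertain.

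The other members have no gene symbol on the array. DB090170 had -5.15 and -5.01 in GATA1 5-13 and -5.17 and -4.72 in GATA1 4-14, the lowest ratios of the set (chromosome X, 115711115 to 115711174). Both clones were too dim for a level, and the fold was at least 30.1 in GATA1 5-13 and no less than 26.8 in GATA1 4-14. These bounds depend on the background correction, without which the mean log2 ratio of DB090170 over the clones was -3.16. The nearest named probes were those of CT83 and SLC6A14, 204.1 and 204.8 kb away, with mean ratios between -0.05 and 0.03 and the control RNA not above background. THC2671679 had -1.90, -1.75, -1.73 and -1.80 (chromosome 3, 194599624 to 194599683), and lay 13.1 kb from ATP13A4. AK002005 had -1.19, -1.18, -1.07 and -1.08 (chromosome 2, 206839060 to 206839119), and the probe named KIAA1571, 48.0 kb from it, had means of -2.17 in GATA1 5-13 and -0.52 in GATA1 4-14. THC2729899 had -1.34, -1.15, -1.18 and -1.02 (chromosome 4, 83623590 to 83623649), and FLJ12993, 1.2 kb from it, had -0.61 and -0.63.

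The threshold divided a continuous range. By the highest of the 4 values, the members just inside were THC2729899 at -1.025, MS4A2 at -1.038, PGBD2 at -1.046, CTTNBP2 at -1.056 and FCER1A at -1.072. Just outside were WNT11 at -0.974, BC036938 at -0.967, S100P at -0.966, the unnamed probe A_32_P44831 at -0.952 and a HAVCR2 probe at -0.939. WNT11 had -2.12 and -2.07 in GATA1 5-13 but -1.02 and -0.97 in GATA1 4-14. BC036938 likewise had -2.39, -2.44, -0.97 and -0.97. S100P, a relative of S100A4, had -1.28, -1.19, -0.98 and -0.97, the probe A_32_P44831 had -1.53, -1.33, -1.06 and -0.95, and the HAVCR2 probe had -1.01, -0.94, -0.98 and -1.07. It was thus mostly GATA1 4-14 that decided membership. Both arrays of GATA1 5-13 were below -1 for 273 probes (0.666%) and both arrays of GATA1 4-14 for 85 (0.207%), so that the set holds 20.9% of the former and 67.1% of the latter.

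The arrays of GATA1 5-13 both lay below those of GATA1 4-14 for 31 of the 57 probes, the reverse held for 13, and the arrays overlapped for 13. Over all probes these shares were 25.2% and 24.2%. The median difference, GATA1 5-13 minus GATA1 4-14, was -0.11 over the members. The gap between the clone means had a median size of 0.39 over the members. The median gap between the 2 arrays of a clone was 0.12 for GATA1 5-13 and 0.09 for GATA1 4-14, which holds the error of the arrays but not that between cultures. GATA1 5-13 was lower by the most for C5orf23, CD34, MAP7D2, NPR3 and KDR, and GATA1 4-14 for GAGE7, COL23A1, VCY and MAGEC2. The gaps of C5orf23, NPR3 and MAGEC2 rest in part on signals not above background in the lower clone, and so do some of the orders counted above. With 1 culture per clone measured, a difference between clones has no biological replicate and was not tested.

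**Figure D2:**
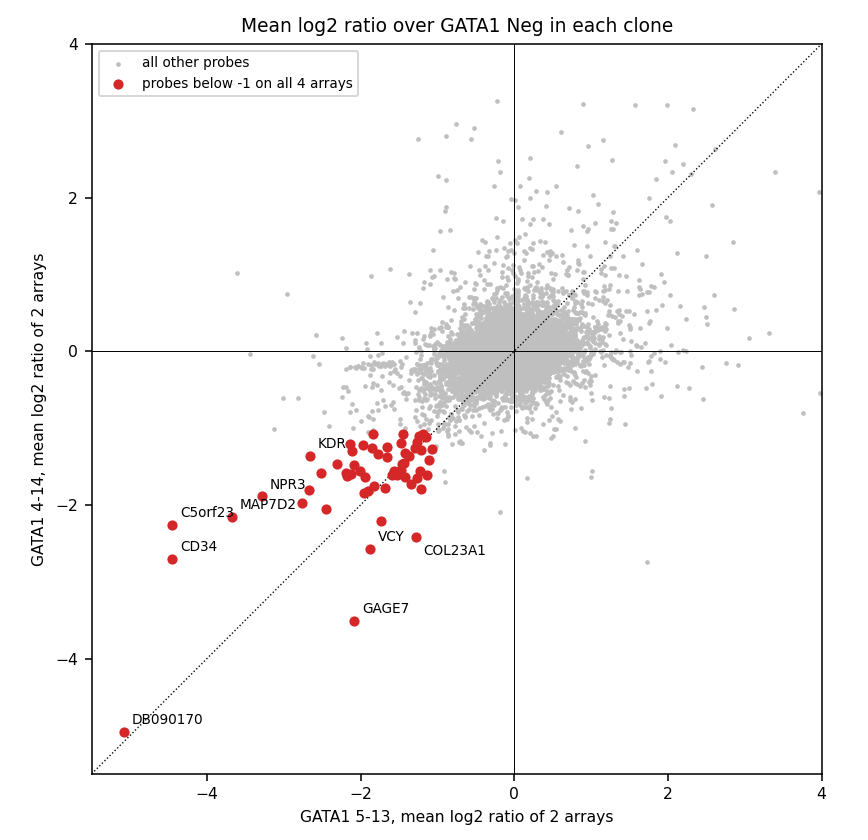
Mean log2 ratio over GATA1 Neg in GATA1 5-13 (x axis) and GATA1 4-14 (y axis), each the mean of 2 arrays, with the 57 probes in red and all other probes in grey. Points left of and above the dotted diagonal are lower in GATA1 5-13, as CD34 at -4.45 and -2.70, and GAGE7 at -2.08 and -3.51 lies on the other side.

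The array held 14 further probes for 8 of the member genes, and 7 of them were lower on all 4 arrays, against 13.4% of all probes. These probes share RNA and arrays with the members and so are a description, not a second experiment. The control RNA was well above background on all 4 arrays for 5 of the 14, and all 5 were lower on every array. They were the third HAVCR2 probe (means -0.98 and -1.03), a second CALN1 probe (-1.02 and -1.24), another probe of MECOM (-0.85 and -0.63) and the other 2 probes of MAP7D2 (-0.80 and -0.60, and -0.60 and -0.68). The knockdown RNA was well above background on all arrays only for HAVCR2, so that the sizes at the other 4 are not fully measured and are not set against those of the member probes. The other 9 probes, of ATP13A4, IL10RA, MECOM, NLRC3 and PHLDB2, were dim in the control and had means between -0.38 and 0.05.

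The 57 probes lay on 18 chromosomes. Chromosome X held 6 of them (10.5% against 3.49% of the 40414 positioned probes), in 6 different genes or transcripts, and its median ratio over all probes was 0.00 in GATA1 5-13 and 0.01 in GATA1 4-14. Chromosomes 1, 3, 5 and 11 also held 6 each, with 10.0%, 5.66%, 4.90% and 5.39% of the array's probes. Chromosomes 12, 13, 14, 15, 17 and 22 held 0. These shares rest on few probes, and several genes count more than once. The only pairs of members with different names within 1 Mb of each other were CALN1 with AL117636, ATP13A4 with THC2671679, NPR3 with C5orf23 and MS4A2 with MS4A3. Between MS4A3 and MS4A2 lay an unnamed probe with means of 0.04 and 0.08, and between CALN1 and AL117636 the other CALN1 probe. In each of the pairs both names lay on the same strand. Whether any of these pairs belongs to a single transcript or gene was not tested, so that the 43 names may count a gene more than once.

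**Figure D3:**
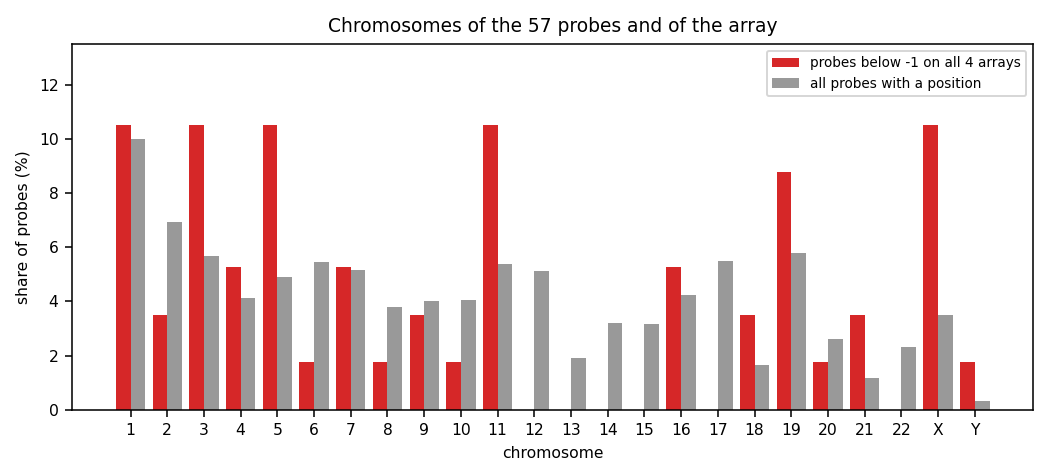
Share of the 57 probes (red bars) and of all positioned probes of the array (grey bars) on each chromosome, in percent. Chromosome X holds 10.5% of the 57 against 3.49% of the array.

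Around the members, within 1 Mb of them, were 1577 other probes, whose medians were -0.02 and -0.01 in the clones, and 16.8% of them were lower on all 4 arrays. Where the control RNA was well above background on all arrays the share was 203 of 911 (22.3%), against 17.5% of all such probes. Neighbours were told from members by name alone, so that probes of a member's own gene can be among them. The second CALN1 probe, beside AL117636, is counted in this way. Low neighbours stood beside some members, and the examples were picked after their values were seen. The relative of IL1A, IL1B, 55.0 kb from it, had means of -1.71 in GATA1 5-13 and -0.63 in GATA1 4-14. MS4A6A, a gene of myeloid cells 73.6 kb from MS4A2, had -1.88 and -0.30 at its nearer probe. Beside CD34, an unnamed probe 31.6 kb away had -0.72 and -0.89 and AK123264, 84.8 kb away, had -0.72 and -1.18. THC2613186, 3.7 kb from KDR, had -1.17 and -0.83, and AK090397, 6.6 kb from COL23A1, had -0.75 and -0.76. PLAAT1, 141.5 kb from ATP13A4, had -1.48 and -0.47. Around CD52, probes with the control RNA well above background were mostly lower in GATA1 5-13 than in GATA1 4-14. Among them SH3BGRL3, 39.0 kb away, had -0.66 and -0.23, and probes of HMGN2 and FAM110D, 155.2 and 157.8 kb away, had -0.80 and 0.08 and -0.88 and -0.17. BX490547, 150.2 kb away, had -0.30 and -0.45. Around ITGAM, the related ITGAX and ITGAD were not well above background in the control, and BCKDK and VKORC1 had means between -0.08 and 0.02. PYCARD, 130.8 kb from ITGAM, had -0.25 and -0.37 and AHSP, 196.0 kb away, had -0.36 and -0.30, both lower on all 4 arrays. MGC46336, 103.1 kb away, had 0.54 and -0.05.

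**Figure D4:**
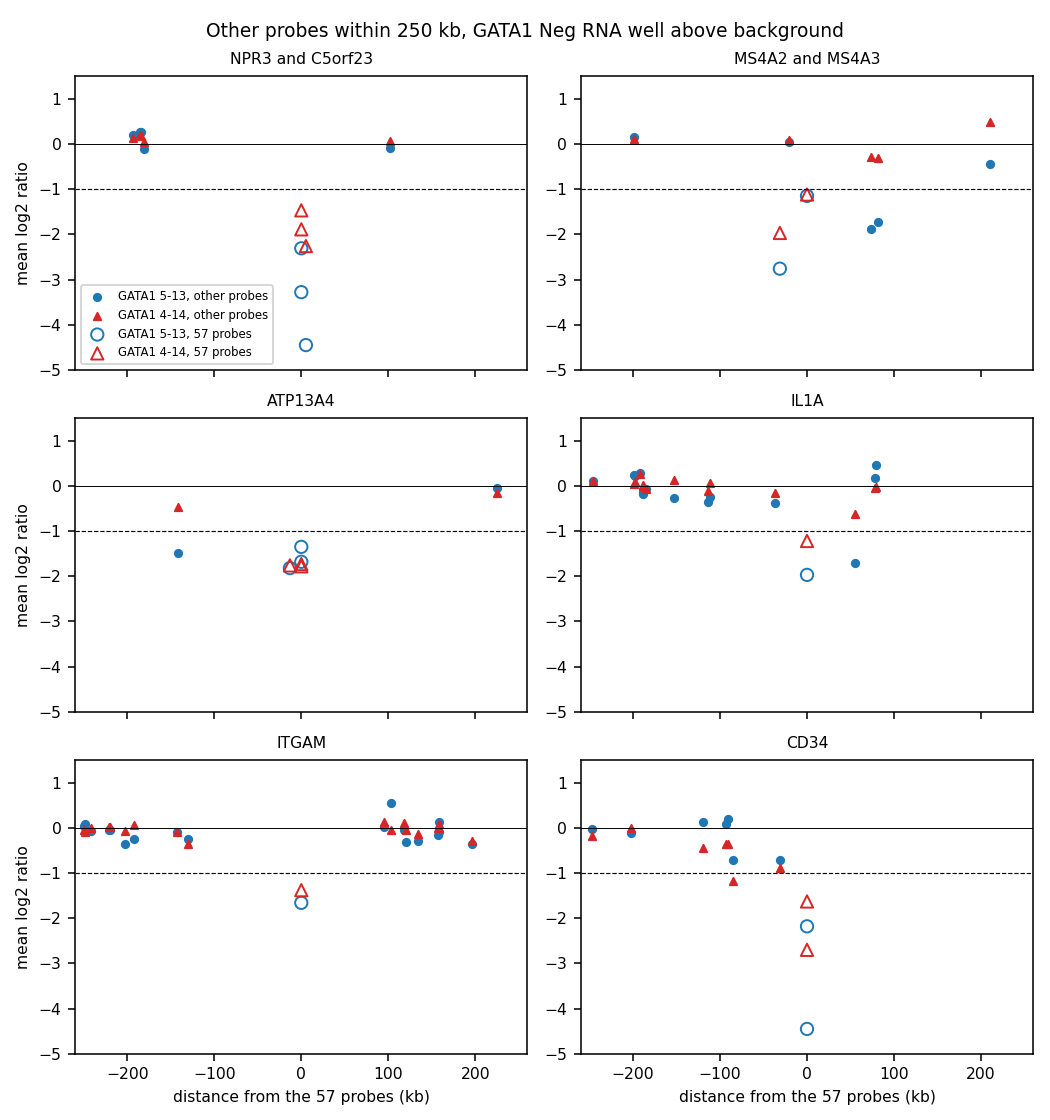
Mean log2 ratio (y axis) of probes within 250 kb of 6 members against their distance in kb (x axis), with circles for GATA1 5-13 and triangles for GATA1 4-14, open for members of the 57 and filled for other probes whose control RNA was well above background on all arrays. Low filled points stand beside IL1A (IL1B at -1.71 and -0.63), MS4A2 (MS4A6A at -1.88 and -0.30) and ATP13A4 (PLAAT1 at -1.48 and -0.47), and none below -1 stands beside ITGAM or NPR3.

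Relatives of the members were read from 24 family and pathway lists that hold at least 1 of them, with the probes of a gene averaged. Over all 30474 genes, 13.4% were lower and 13.2% higher on all 4 arrays, with a median of 0.00 in both clones. The counts that follow leave the members out and use the sign alone, however small the ratio. Among the S100 proteins, 6 of 17 others were lower on all arrays and 1 higher, with S100P at -1.23 and -0.97 and S100A6 at -0.81 and -0.87, the latter 8.5 kb from S100A4. Among the clade B serpins, intracellular protease inhibitors, 5 of 12 others were lower and 0 higher, led by SERPINB1 at -1.65 and -0.66. Among the angiogenic receptors, 4 of 6 others were lower, with TEK at -0.50 and -0.49 and TIE1 at -1.68 and -0.19, while NRP1 had -0.43 and 0.79. FLT4, counted as lower, had only -0.08 in each clone. Among the haematopoietic SH2 adaptors, 4 of 12 others were lower, including SH2D2A at -0.82 and -0.44, and 1 was higher, GRAP2 at 0.33 and 0.31. SH2B3, GRAP and LAT, also counted as lower, had means of only -0.11 to -0.04.

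Other lists held genes in both directions or few low relatives. The VCX and VCY family ran in opposite directions, with VCY at -1.88 and -2.57 while VCX had 1.27 and 2.49, VCX2 1.05 and 0.83 and VCX3A 1.57 and 3.21. In cGMP signalling, where NPR3 was low, 3 of 12 others were lower, and of the soluble guanylate cyclase subunits GUCY1A1 was higher on all arrays at 2.12 and 1.28, as was GUCY1B1 at 1.40 and 0.46, while GUCY1A2 had 0.01 and 0.11 and was not above background in the control on all arrays. Of the interleukin-1 agonists and receptors, 2 of 11 others were lower, IL1B among them, and 4 higher. Of the urea cycle and arginine enzymes 4 of 11 others were lower and 1 higher, with ASS1 at -0.91 and -0.57 and ARG2 at -0.21 and -0.35. Of the MS4A family 1 of 10 others was lower, MS4A6A, and 2 were higher, while of the P5-type ATPases and the transmembrane collagens 0 of 4 each were lower.

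For the lists left, the CD34 sialomucins had 0 of 2 others lower on all arrays and 1 higher. Stem and progenitor surface proteins had 2 of 11 lower and 0 higher, the PRDM family 1 of 11 lower and 2 higher, the MAL family 1 of 4 lower and 0 higher, and netrin receptors and ligands 2 of 10 lower and 1 higher. NOD-like receptors had 2 of 13 lower and 3 higher, Gq class subunits 2 of 3 lower and 0 higher, the calneuron list 1 of 5 lower and 0 higher, and the LL5 cortical platform 3 of 9 lower and 2 higher. Type 2 cytokine receptors had 3 of 10 lower and 2 higher, and TIM and phosphatidylserine receptors 1 of 8 lower and 0 higher. In the testis families 2 of 5 others were lower and 0 higher for MAGEC and SPANX, and 3 of 10 lower and 1 higher for GAGE and PAGE. The low genes SPANXA1, SPANXD, GAGE3, XAGE3, NTN1, NTN4, PRKG2, IL22RA2, SERPINB12, S100A5 and MAGEA10 did not have the control RNA well above background on all arrays. The same held for the higher genes MS4A7, MS4A14, NLRC4, NLRP7, NLRP12, PHLDB1, ERC2, S100A8, NOS2, PAGE4, NTNG2, IL1R2 and CASP1. In lists added after the values were seen, 2 of 8 other MAGEA genes were lower, with MAGEA12 at -0.78 and -0.72 and MAGEA9 at -0.96 and 1.56. Of the other beta-2 integrin subunits 0 of 4 were lower on all arrays, and ITGB2, the partner chain of ITGAM, had 0.03 in GATA1 5-13 and 0.67 in GATA1 4-14.

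**Figure D5:**
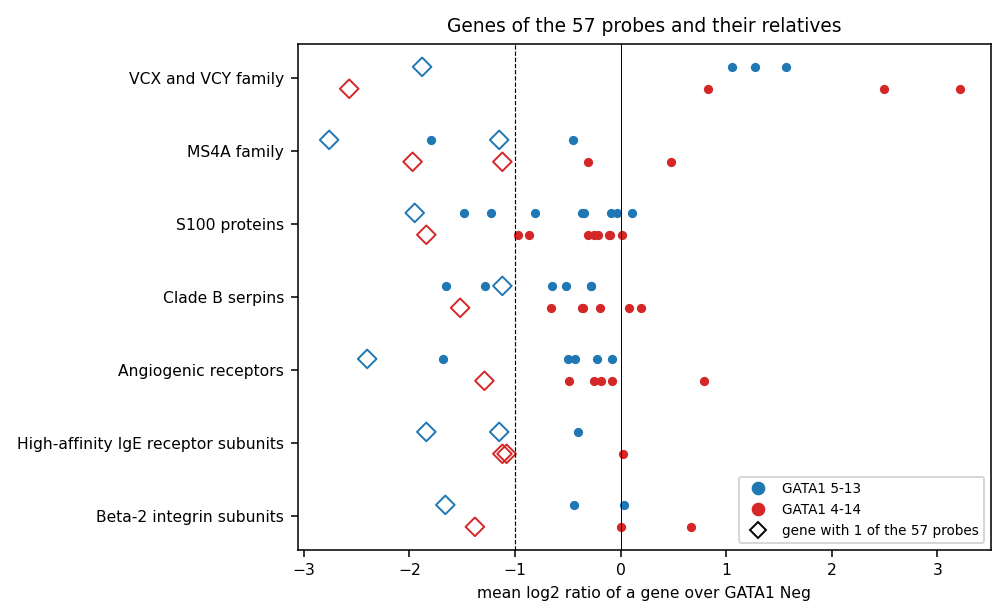
Mean log2 ratio over GATA1 Neg (x axis) of the genes of 7 lists (rows) whose control RNA was well above background on all arrays, with blue for GATA1 5-13, red for GATA1 4-14, open diamonds for genes with at least 1 of the 57 probes and filled dots for their relatives. All probes of a gene are averaged. VCY lies at -1.88 and -2.57 while its 3 relatives lie between 0.83 and 3.21.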

How the data were processed

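RNA of 2 Meg-01 clones was compared with GATA1 Neg on 4 arrays. The files deposited by the authors came from Feature Extraction 9.5.3.1 (Agilent) and give spot and local background intensities of both channels, not normalized, and probe positions on hg18. The deposited log10 ratios were made by that program from background-subtracted and dye-normalized signals, and the series-wide table deposited by the authors repeats these log10 ratios with knockdown as numerator (largest difference 4.97e-06).

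From the intensities, log2 ratios were made in R 4.3.3 by limma 3.58.1: normexp with an offset of 50 on all 45015 spots, loess within each array on probe spots, removal of 135 to 152 outlier spots per array, a mean over the spots of a probe, and a sign turned to knockdown over GATA1 Neg. The offset makes ratios of dim probes smaller. Precision is limited by how few arrays there are, and whether the 2 arrays of a clone hold separate RNA extracts is not given in the sources used here. No test was run, since the members were chosen on all 4 arrays. The normalization and the rule were also run on simulated arrays with falls placed only in bright probes, so that this run does not cover dim members.

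Array names were updated through 23664 of 25712 RefSeq accessions found in the RefSeq gene table (GRCh38.p14). That table served for names and promoters alone. For the members, 44 of 46 matched. Exon or intron was not looked up, as no annotation of hg18 was used here. The members and gene lists were chosen with earlier results of these data known. By rule every member was named, and the values of each array were given for GATA1, the 5 lowest members with both RNAs above background and the 5 lowest of the rest, genes with 2 or more probes, the widest and narrowest difference between clones, members of the lists, and 5 probes on each side of the threshold; those of the remaining members were added. Alternatives were no background correction, an offset of 16, the Feature Extraction and series-wide log ratios, median centring, outlier spots kept, control spots in the loess fit, dim probes left out, leaving out an array or a clone, the rule on clone means, and thresholds of -0.8 and -1.2.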

Additional observations from a re-analysis of the deposited data

How the results depend on the processing

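The number of probes below -1 on all arrays, 57 as reported, was 26 without background correction, 125 with the Feature Extraction log ratios and 125 with the series-wide table, 88 at a threshold of -0.8, and 273 with the clone GATA1 4-14 left out. It was 71 with an offset of 16, 49 with median centring, 63 by clone means, 41 at -1.2, 85 with the clone GATA1 5-13 left out, and 58 to 64 with 1 array left out. All 57 met the rule under the Feature Extraction log ratios, while 26 did without background correction and 49 with median centring. For the same 57 probes, the median in GATA1 5-13 was -1.14 without background correction, -1.87 with an offset of 16, and -2.06 with both the Feature Extraction log ratios and the series-wide table. In GATA1 4-14 these medians were -0.99, -1.64, -1.90 and -1.90, and leaving out 1 array gave -1.54 to -1.56, and -1.71 to -1.78 in GATA1 5-13. The median difference between the clones was -0.14 with an offset of 16 and -0.09 to -0.14 with 1 array left out. Of 798 member means recomputed with other normalizations or with arrays or clones left out, 163 moved by more than the SD between the clones. Some of the 798 could not move so far: leaving out a clone shifts a mean by less than that SD. Leaving out dim probes removed none of the 57, and the series-wide table repeats the Feature Extraction log ratios. The share that moved is therefore no measure of how stable the means are. The clone-mean rule and the other thresholds change only which probes are taken. As the members were chosen for low values on every array, that their means stayed below 0 without an array or a clone was fixed by the choice, and without background correction they ran from -3.16 to -0.46. The cause of these shifts was not tested. No paired analysis was possible because no result comes from a test. Bounds, positions, lists and promoters were not recomputed under the alternatives. Signal over background limits the set: a fold of a probe whose knockdown RNA was not well above background is given only as a lower bound, which itself rests on the background correction.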
